A study of Mus musculus with 9 samples.

Results

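The 10 genes described here are those that are read for a cadherin switch, the exchange of epithelial for mesenchymal adhesion proteins. They comprise 5 cadherins (Cdh1, Cdh2, Cdh3, Cdh13 and Cdh17), the epithelial adhesion gene Epcam, the intermediate filament gene Vim and the transcription factors Snai1, Snai2 and Zeb1. They were picked by gene symbol, and all 10 were found among the 50600 genes of the deposited tables. Testing was limited to genes that reached a TPM of 1 in any of the 9 libraries, which 6 of the 10 did (Cdh1, Cdh3, Cdh13, Cdh17, Vim and Epcam). TPM corrects a read count for the length of the gene and then for the library's total, so that levels of different genes can be compared.

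RNA was sequenced from mouse epithelial cultures, intestinal epithelium grown in Matrigel without added stroma, in 3 groups of 3 libraries. Organoids came from the small intestine of WT mice (strain C57BL/6 in the labels, mixed background in the study's methods) and were kept for 24 hr in equal parts of concentrated EGF, Noggin and R-spondin1 medium and conditioned medium. The conditioned medium was harvested either from tumoroids (T-cM) or from WT organoids (WT-cM). Tumoroids came from intestinal tumours of Apc1638N/+ mice (strain MIX), which carry 1 mutant copy of the tumour suppressor gene Apc in every cell and form tumours after loss of the other. Tumoroids were untreated, grown for 24 hr, and came from other and older mice than the organoids. Each of the 3 tumoroid libraries came from a different mouse, and the organoids from 3 further mice. For the 6 organoid libraries the titles and the treatment field name opposite media. Groups are named after the titles, as T-cM-titled organoids and WT-cM-titled organoids, and their directions are reversed should the treatment field be right. Tumoroids and organoids differed in genotype, strain, tissue of origin, mouse age and medium together, and these cannot be told apart.

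Cadherins are calcium-dependent adhesion proteins that bind their like on the neighbouring cell. E-cadherin, the product of Cdh1, holds the adherens junction of simple epithelia together through beta-catenin and alpha-catenin, and the intestine adds the liver-intestine cadherin encoded by Cdh17, which binds without catenins. During epithelial-mesenchymal transition, factors of the Snail, Zeb and Twist families repress Cdh1 and other epithelial genes, while N-cadherin (Cdh2) and vimentin (Vim) become abundant.

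The members are spread over the mouse genome, here given for GRCm38 with the Gencode annotation. Cdh3 (chr8:106510891-106557297) and Cdh1 (chr8:106603351-106670246) are neighbours on the plus strand, 46053 bp apart, with 1 annotated protein-coding gene between them. Cdh13 spans chr8:118283733-119324921, Cdh17 chr4:11758147-11817895, Vim chr2:13573927-13582826, Snai1 chr2:167538195-167542814, Snai2 chr16:14705852-14709385 and Epcam chr17:87635979-87651129. Annotated genes that overlap Cdh2, Cdh13 or Zeb1 held 0 reads in every library except for 1 read in tumoroids 1 within Cdh13.

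The Snail and Zeb factors bind the E-box CAGGTG (on the other strand CACCTG), through which they repress epithelial genes and, in the case of Snai1, its own gene. RefSeq promoters, 250 bases before the start of transcription on GRCm38.p6, were at hand for Epcam, Snai1 and Vim. Those of Epcam (chr17:87635729-87635978, plus strand) and Snai1 (chr2:167537945-167538194, plus strand) are shown because they place this E-box beside the most abundant member and beside a member close to 0. Capitals mark the E-box on either strand and, in Epcam, also CATAAA, the core of sites for the intestinal Cdx factors.
Epcam: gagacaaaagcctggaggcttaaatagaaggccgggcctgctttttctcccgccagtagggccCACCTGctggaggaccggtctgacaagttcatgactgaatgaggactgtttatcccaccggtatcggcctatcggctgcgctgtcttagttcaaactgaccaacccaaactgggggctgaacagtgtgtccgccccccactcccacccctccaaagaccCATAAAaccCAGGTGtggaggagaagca
Snai1: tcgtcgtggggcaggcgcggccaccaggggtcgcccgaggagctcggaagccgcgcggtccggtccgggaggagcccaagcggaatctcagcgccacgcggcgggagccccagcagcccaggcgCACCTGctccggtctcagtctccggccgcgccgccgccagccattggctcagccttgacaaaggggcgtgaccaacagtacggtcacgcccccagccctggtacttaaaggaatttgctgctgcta
The E-box begins at -187 and -19 in Epcam and at -126 in Snai1, and these letters are not in the Vim window. At least 1 match is present in 17.2% of all 32851 promoters of this length, and CATAAA or TTTATG in 10.8%. A match describes the sequence and does not show binding.

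Gene-assigned reads numbered 16541635 to 25170966 per library, and 3 reads, taken as the least that shows expression, corresponded to 0.103 to 0.204 CPM (reads scaled to the TMM-normalised library size). These limits, and the intervals on read ratios below, cover counting error only. The epithelial keratin genes Krt8, Krt18 and Krt19 were at means of 931 to 5106 TPM in organoids and in tumoroids, while other markers of intestinal epithelium were low in one of them, such as Krt20 (mean 7.24 TPM) and Muc2 (3.87 TPM) in tumoroids and Lgr5 (0.2 TPM) in organoids. Among 14 fibroblast markers, Col3a1, Lum, Dpt and Twist2 had 0 reads in every library, and the sum of the list, 75.6 to 125 TPM in organoids and 8.2 to 47.6 TPM in tumoroids, came almost wholly from Fbln1 (means of 93.1 and 28.5 TPM). Tumoroids 3 stood apart from the other 2 tumoroid libraries, with 1340 reads of Acta2 (50 and 89 in the others) and 812 reads of the gastric factor Sox2 (14 in each of the others). Calls of the genes named below that are lost without this library are given with and without it. In such bulk RNA, fewer cells of a type and less RNA per cell cannot be told apart.

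The 3 epithelial members were among the most abundant genes of every library. Epcam, which encodes an adhesion protein of most simple epithelia, was highest. It stood at 1384, 1336 and 1346 TPM in T-cM-titled organoids 1 to 3, at 1329, 1222 and 1160 TPM in WT-cM-titled organoids and at 1351, 1351 and 1692 TPM in tumoroids. By mean TPM it ranked 107 in organoids and 81 in tumoroids among all genes.

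Cdh17 followed in organoids, where it was the leading cadherin. It was read at 910, 983 and 800 TPM in T-cM-titled organoids and at 834, 875 and 659 TPM in WT-cM-titled organoids. In tumoroids it stood at 346, 411 and 199.8 TPM, so that each of the 3 tumoroid libraries lay below all 6 organoid libraries, and tumoroids 3 was the lowest. On the CPM scale the groups did not overlap either, as for 45.8% of all tested genes in either direction.

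Cdh1 was read at 497, 474 and 458 TPM in T-cM-titled organoids, at 493, 435 and 366 TPM in WT-cM-titled organoids and at 517, 728 and 804 TPM in tumoroids. On this scale every tumoroid library was above every organoid library, but the median tested gene was also higher in tumoroids (log2 fold change 0.518). On the CPM scale, which is set by TMM and used for the test, the groups overlapped, with 732 to 882 CPM in organoids and 722, 892 and 1027 CPM in tumoroids.

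The mesenchymal members were far lower. Vim reached 22 to 84 reads in organoid libraries and 83, 47 and 58 reads in tumoroids, or 0.77 to 2.31 TPM and 1.37 to 2.6 TPM. Its libraries of the 3 groups overlapped. Cdh2, the N-cadherin gene, had 1, 0 and 0 reads in T-cM-titled organoids, 1, 1 and 0 reads in WT-cM-titled organoids and 2, 34 and 4 reads in tumoroids.

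Of the 3 transcription factors none exceeded 8 reads in any library. Snai1 was read 2 times in all organoids (1 read in T-cM-titled organoids 3 and 1 in WT-cM-titled organoids 1) and 3 times in tumoroids. Snai2 had 0 reads in the 6 organoid libraries and 0, 6 and 1 reads in tumoroids. Zeb1 had 1, 0 and 0 reads in T-cM-titled organoids, 2, 0 and 3 in WT-cM-titled organoids and 1, 0 and 8 in tumoroids. At this depth, levels of these factors below the equivalent of 3 reads could not be told from 0.

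The remaining cadherins were read in tumoroids and hardly at all in organoids. Cdh13 encodes T-cadherin, which has no cytoplasmic tail and is held by a lipid anchor. It had 1923, 1398 and 8554 reads in tumoroids (25.4, 17.3 and 93.6 TPM) and 1 read in the 6 organoid libraries together. Cdh3 encodes P-cadherin, found mostly in basal layers of stratified epithelia, and had 60, 82 and 127 reads in tumoroids (2.03, 2.59 and 3.56 TPM) against 4 reads in all organoids.

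**Figure D1:**
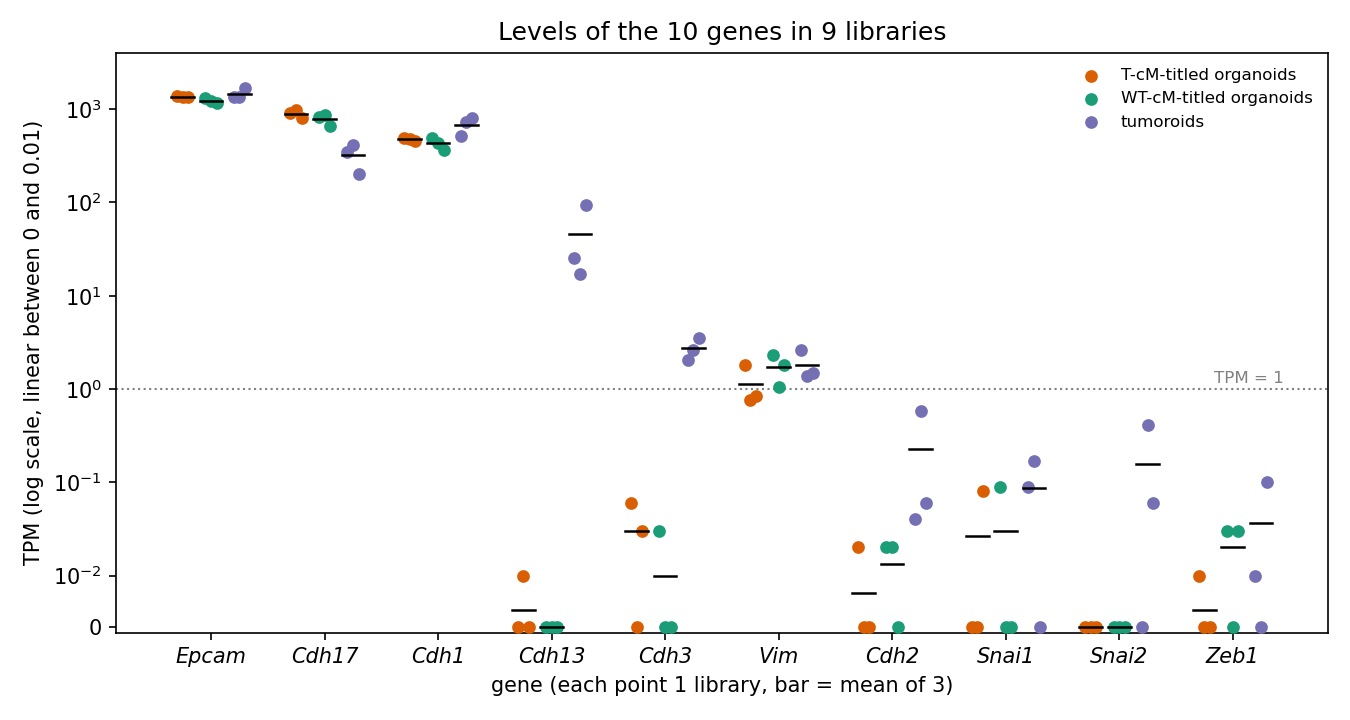
TPM of each of the 10 genes (log scale, linear between 0 and 0.01) in T-cM-titled organoids, WT-cM-titled organoids and tumoroids. Each point is 1 library, the black bar is the mean of 3 and the dotted line marks the filter at 1 TPM. Epcam, Cdh17 and Cdh1 lie above 100 TPM everywhere, Cdh13 and Cdh3 are above 1 TPM in tumoroids alone, and Cdh2, Snai1, Snai2 and Zeb1 remain below 1 TPM in all 9 libraries.

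The order of the genes in organoids was Epcam (1296 ± 85.9 TPM, SD, n = 6), Cdh17 (843 ± 111), Cdh1 (454 ± 49) and Vim (1.43 ± 0.627), with no overlap between neighbours of this order. In tumoroids it was Epcam (1465 ± 197 TPM, SD, n = 3), Cdh1 (683 ± 149), Cdh17 (319 ± 108), Cdh13 (45.4 ± 41.9), Cdh3 (2.73 ± 0.774) and Vim (1.82 ± 0.676). The ranges of Cdh3 and Vim overlapped in tumoroids, while Cdh1 and Cdh17 had changed places. The other 4 genes were at most at 0.58 TPM, and their order was within their spread.

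The balance of the cadherins can be read within a library, where it does not depend on how libraries are scaled to each other. Of the summed TPM of the 5 cadherins, Cdh17 made up 64.7, 67.5 and 63.6% in T-cM-titled organoids and 62.8, 66.8 and 64.3% in WT-cM-titled organoids. Its share was 38.8, 35.5 and 18.1% in tumoroids. The sum itself overlapped between the groups, at 1024 to 1457 TPM in organoids and 890, 1159 and 1101 TPM in tumoroids.

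Cdh1 took up most of this share. It held 32.5 to 37.2% of the cadherin TPM in organoids and 58.1, 62.8 and 73% in tumoroids, and Cdh13 a further 2.85, 1.49 and 8.5% there. Cdh3 stayed at 0.223 to 0.323% and Cdh2 at 0.0045, 0.05 and 0.00545% of the cadherin TPM in tumoroids.

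The ratio of Cdh1 to Cdh17 TPM was 0.546, 0.482 and 0.573 in T-cM-titled organoids, 0.592, 0.497 and 0.555 in WT-cM-titled organoids and 1.49, 1.77 and 4.02 in tumoroids. All tumoroid libraries were above all organoid libraries, also without tumoroids 3. The ratio of Epcam to Cdh1 went the other way, from 2.69 to 3.17 in organoids to 2.61, 1.86 and 2.1 in tumoroids, again without overlap.

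**Figure D2:**
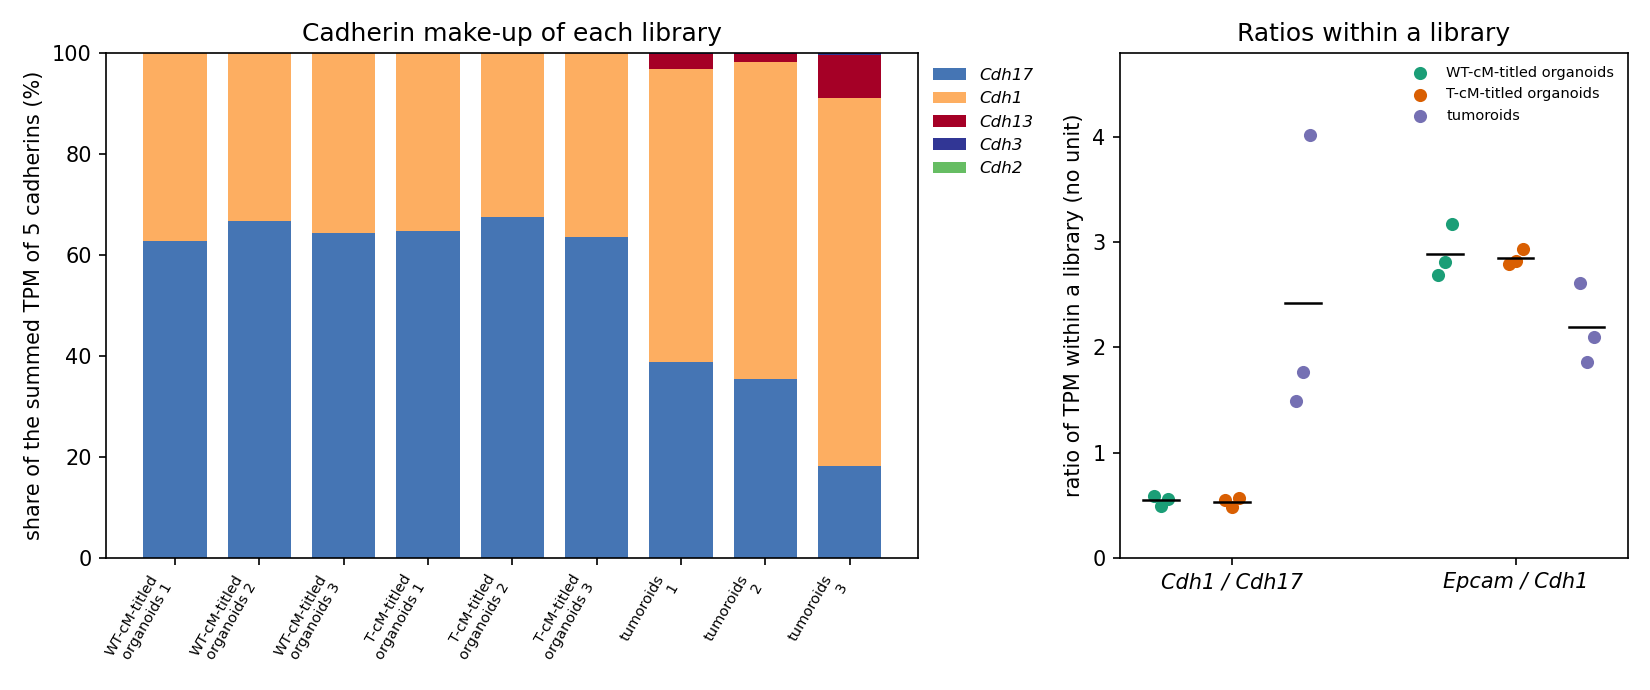
Left, share of each of 5 cadherins in their summed TPM (%), 1 bar per library. Right, ratios of TPM within a library, 1 point per library with the mean of 3 as a bar. Cdh17 holds 62.8 to 67.5% in the 6 organoid libraries and 18.1 to 38.8% in the 3 tumoroid libraries, and Cdh1 exceeds Cdh17 in tumoroids alone.

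The first comparison asks whether the conditioned medium altered these genes in organoids. None of the 6 tested members was called by edgeR's quasi-likelihood F test with the replicate number as a block (Benjamini-Hochberg adjusted p under 0.05 and absolute log2 fold change above 1), a rule met by 1.10% of the 16208 genes tested in either direction. Without the fold change limit there was also none, where 5.03% of all genes passed as higher in the T-cM-titled group and 5.05% as lower. At an unadjusted p under 0.05 there were 2 members (Vim and Cdh17), against 22.0% of all tested genes, and limma voom and DESeq2 called none.

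Vim had the largest of these differences. In pairs 1 to 3 it was at 3.33 against 4.18, 1.49 against 2.07 and 1.69 against 3.72 CPM (T-cM-titled against WT-cM-titled library). It was thus lower in the T-cM-titled library of each pair, as were 22.3% of all tested genes, although the groups overlapped. The log2 fold change was -0.63 (SE 0.23, 95% interval -1.11 to -0.15, edgeR adjusted p = 0.092). Leaving out pair 1, 2 or 3 gave log2 fold changes of -0.86, -0.69 and -0.38, with edgeR adjusted p of 0.026, 0.50 and 0.70, and it was 0.93 when the pairing was not modelled.

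The epithelial members differed less. Cdh17 was higher in the T-cM-titled library of all 3 pairs, by 0.154, 0.132 and 0.219 on the log2 scale, with a fitted log2 fold change of 0.18 (SE 0.07, edgeR adjusted p = 0.095). Cdh1 was at 882, 882 and 879 CPM in T-cM-titled and 859, 829 and 732 CPM in WT-cM-titled organoids, and Epcam at 1097, 1108 and 1152 against 1033, 1040 and 1036 CPM. For both genes the groups did not overlap, as for 10.4% of all tested genes, but the differences were small, with log2 fold changes of 0.14 (95% interval -0.01 to 0.29, adjusted p = 0.25) for Cdh1 and 0.12 (-0.02 to 0.27, adjusted p = 0.31) for Epcam. Changes of Cdh1, Cdh17 or Epcam beyond 0.32 on the log2 scale lay outside these intervals. Cdh3 and Cdh13, with 4 reads and 1 read in the 6 libraries, were at the floor in both organoid groups and are given no fold.

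**Figure D3:**
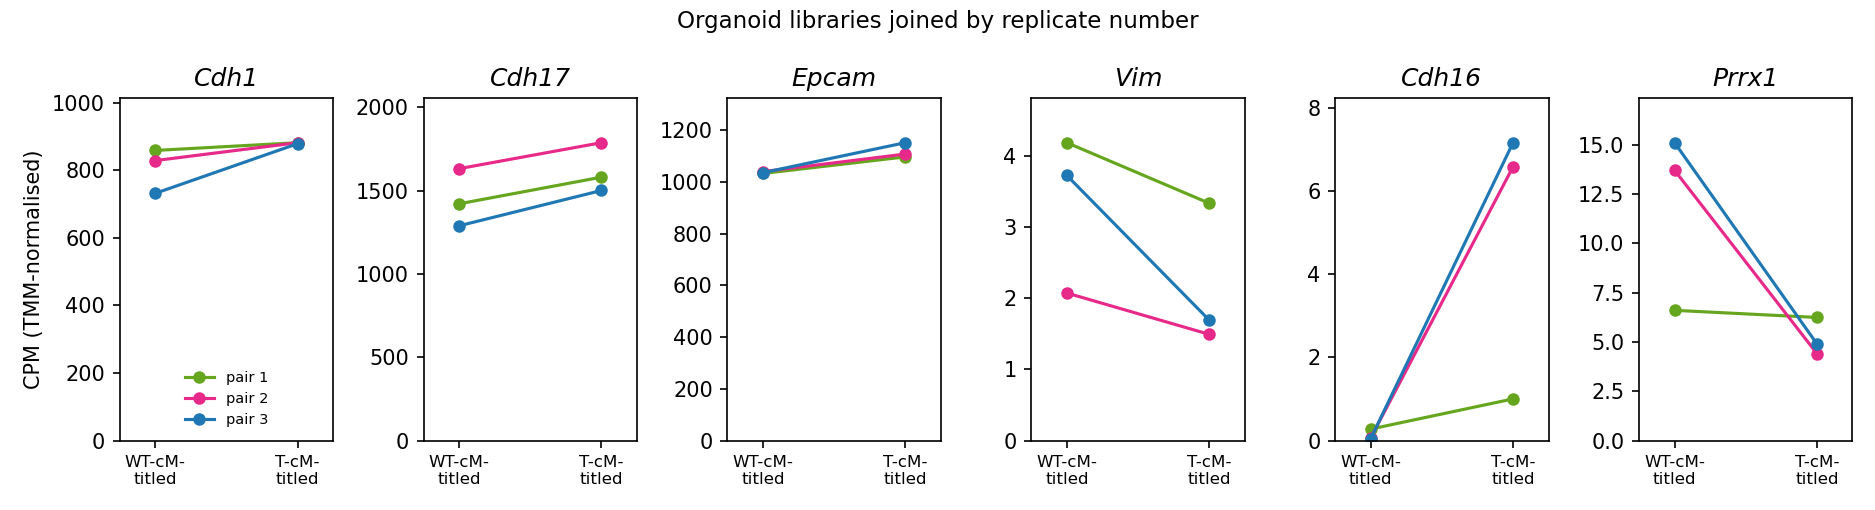
TMM-normalised CPM (linear axes from 0) in the organoid libraries for 4 of the genes and for Cdh16 and Prrx1, with libraries of the same replicate number joined. Cdh1, Cdh17 and Epcam move up slightly and Vim moves down in all 3 pairs. Cdh16 and Prrx1 move strongly in pairs 2 and 3 and less in pair 1.

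The second comparison asks how tumoroids differ from normal organoids. Of the 6 tested members, 3 were called (edgeR's quasi-likelihood F test over 9 libraries), with Cdh13 and Cdh3 higher and Cdh17 lower in tumoroids. Of the 4 members that reached 1 TPM in both cultures, none was called higher and 1 lower, against 13.6% and 12.2% of 12850 such genes. Among all tested genes 33.1% were called in either direction and 12.1% as lower (29.6% as higher and 20.8% as lower without the fold change limit), so that a call in this comparison is common. Cdh3 and Cdh13 passed the TPM filter through the tumoroids alone, so that the filter favoured their direction and their calls are no independent test. The median log2 fold change of all tested genes was 0.165 rather than 0, and values below are given with this shift in view.

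Cdh17 fell by 1.92 on the log2 scale (SE 0.24, 95% interval -2.47 to -1.37, edgeR adjusted p = 1.6e-04). Without tumoroids 3 the log2 fold change was -1.68 (adjusted p = 8.3e-05). The WT-cM-titled group taken alone gave -1.84 with an adjusted p of 4.9e-04. Relative to the median gene it was -2.08, and it lay between -1.97 and -2.08 with 3 other scalings (RLE, upper-quartile and the deposited TPM).

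Cdh13 and Cdh3 passed the filter through the tumoroids alone and are given without a p-value. Cdh13 was at 87.1, 52 and 294 CPM in tumoroids. Its 11875 reads in tumoroids against 1 in organoids gave a ratio of CPM of 16521 with an exact 95% interval from 2965 upwards. Without tumoroids 3, which held most of the reads, the ratio was 7368 with a lower bound of 1321. Cdh3 was at 2.72, 3.05 and 4.36 CPM, and its 269 reads against 4 gave a ratio of 93.6 (exact 95% interval 36.1 to 346).

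Cdh1, the gene that a cadherin switch would lower, was not among the called genes. Its log2 fold change was 0.06 (SE 0.15, 95% interval -0.28 to 0.40, edgeR adjusted p = 0.76), or -0.10 relative to the median gene. With the deposited TPM it was 0.57 (adjusted p = 0.014) while the median gene stood at 0.52, which leaves 0.05 relative to it. A lower level of Cdh1 by more than 0.28 on the log2 scale was outside the interval of the main fit.

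Epcam was at 842, 739 and 964 CPM in tumoroids, below all organoid libraries (1033 to 1152 CPM). Groups without overlap, in either direction, were found for 45.8% of all tested genes. The log2 fold change of Epcam was -0.34 (95% interval -0.66 to -0.03, edgeR adjusted p = 0.066). An adjusted p under 0.05 was reached in 4 of 20 alternatives, with RLE factors (-0.40, adjusted p = 0.043), with limma voom (-0.35, adjusted p = 0.034), with DESeq2 (-0.40, adjusted p = 9.7e-04) and without tumoroids 3 (-0.46, adjusted p = 0.031). With the deposited TPM the value was 0.17 (adjusted p = 0.29), where the median gene stood at 0.52. Relative to the median gene Epcam was lower in tumoroids with each of the 4 scalings, at -0.51 to -0.35.

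Vim differed by -0.11 on the log2 scale (SE 0.40, 95% interval -1.02 to 0.80, adjusted p = 0.85), and relative to the median gene it lay between -0.29 and -0.26 with each of the 4 scalings. The 4 members below the filter were tested in a fit of 25054 genes without it. Cdh2 had a log2 fold change of 3.98 there (SE 1.04, adjusted p = 0.0073), resting on tumoroids 2, which held 34 of the 40 reads. The ratio of CPM was 18.5 with all libraries (exact 95% interval 5.91 to 93.7) and 4.24 without tumoroids 2 (0.907 to 26.2). Snai2, with 7 reads in tumoroids against 0, did not pass (adjusted p = 0.080). Its level in tumoroids was 3.25 times the floor of 3 reads in all organoids (exact 95% lower bound on the ratio 2.01), and 6 of the 7 reads came from the same library, tumoroids 2. Zeb1 (9 reads against 6, adjusted p = 0.42) and Snai1 (3 against 2, adjusted p = 0.66) did not pass.

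**Figure D4:**
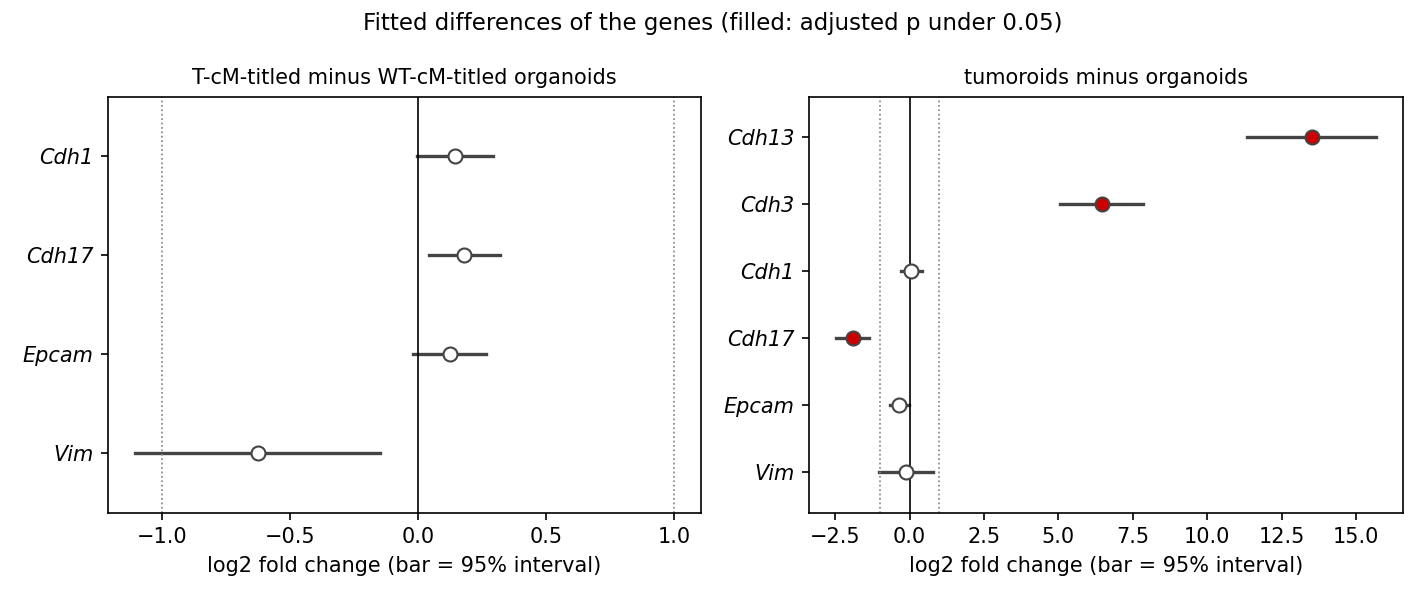
Fitted log2 fold changes with 95% intervals between the organoid groups (left, the 4 members above the floor) and between tumoroids and organoids (right, the 6 tested members). Filled points have an adjusted p under 0.05, and dotted lines mark a log2 fold change of 1 in either direction. No point is filled on the left, while Cdh13, Cdh3 and Cdh17 are filled on the right. Cdh13 and Cdh3 passed the filter through the tumoroids alone.

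The genes whose level over the 9 libraries ran most like that of the called members, by the root-mean-square difference of centred log2 CPM, were found for each. For Cdh17 these were Ppa1 (0.114), Gata4 (0.115) and the guanylate cyclase receptor gene Gucy2c (0.135). For Cdh3 they were Stox2 (0.237), Fmnl2 (0.247) and Wdr35 (0.249). For Cdh13, which varied more, they were the lung surfactant gene Sftpd (0.569), Sbspon (0.621) and Wnt7b (0.648).

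Other members of the cadherin superfamily were read from a list of 38, of which 12 were tested, 3 of them passing the filter through the tumoroids alone. The highest library of a gene that passed in this way had to be a tumoroid library, which favours a higher level there. The lists below are therefore counted over genes that reached 1 TPM in at least 1 organoid and 1 tumoroid library. Of 12850 such genes (each symbol counted once), 13.6% were called higher and 12.2% lower in tumoroids, with a median log2 fold change of 0.05. Of 9 such cadherins 2 were called higher and 3 lower (median 0.07). The planar polarity cadherin gene Celsr2 rose by 2.70 (SE 0.33, edgeR adjusted p = 1.1e-04). Among those that passed through the tumoroids alone, its relative Celsr1 had 1172, 1550 and 2607 reads in tumoroids and 36 to 94 in organoids, and the giant cadherin Fat2 had 19, 46 and 163 reads in tumoroids and 0 in organoids. The brush border protocadherin Cdhr5 fell by 2.81 (SE 0.33, adjusted p = 1.0e-04), and Ret, a receptor kinase with cadherin domains, had 45 to 76 reads in tumoroids and 73 to 140 in organoids (adjusted p = 0.0013).

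Between the organoid groups, 1 of the 12 was called. Cdh16, the kidney cadherin gene and closest in kind to Cdh17, had 19, 97 and 127 reads in T-cM-titled organoids against 5, 1 and 1 in WT-cM-titled organoids. It was higher in all 3 pairs (log2 fold change 5.19, SE 0.48, edgeR adjusted p = 1.5e-08). The value was 6.90 without replicate 1 and 4.15 without replicate 3. Without replicate 2 it was 4.58 with an adjusted p of 0.23, and without the block the adjusted p was 0.60. Tumoroids did not share this level throughout, with 5, 87 and 0 reads.

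Among 17 genes for partners of cadherins at the junction, 14 were tested, and of the 13 at 1 TPM in both cultures 2 were called higher and 1 lower in tumoroids (median 0.23). The other, the adhesion gene Nectin4, passed through the tumoroids alone and had 1120, 1529 and 3151 reads there against 7 to 31 in organoids. The junction-associated LIM protein gene Ajuba rose by 3.57 (SE 0.28, edgeR adjusted p = 8.5e-06) and the p120-catenin relative Arvcf by 1.53 (adjusted p = 8.9e-05). Lima1, which links catenins to actin, fell by 1.40 (adjusted p = 3.5e-04). The catenins that carry E-cadherin, named here for their role, did not pass: Ctnnb1 was at 0.16 (adjusted p = 0.43) and Ctnna1 at 0.14 (adjusted p = 0.50).

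Ajuba was also the only partner called between the organoid groups (log2 fold change 1.05, SE 0.12, edgeR adjusted p = 3.9e-07). It had 389, 381 and 347 reads in T-cM-titled organoids and 188, 220 and 198 in WT-cM-titled organoids, without overlap. Without replicate 2 its adjusted p was 0.16, and 0.60 without the block, and without replicate 3 its log2 fold change of 0.975 fell short of the limit. Of 10 desmosome genes 7 were tested. Of the 6 at 1 TPM in both cultures, Pkp1 (1.82, edgeR adjusted p = 0.0028) was called higher in tumoroids and none lower, with a median of -0.15. Dsg3 passed through the tumoroids alone, with 348, 1659 and 423 reads there and 2 to 27 in organoids. None was called between the organoid groups by both limits.

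Transcription factors of epithelial-mesenchymal transition other than the 3 members were read from a list of 12. Twist1 and Twist2 had 0 reads in all libraries, and 6 genes were tested. Of these Foxc1, Foxc2 and Tcf4 passed the filter through the tumoroids alone, which favours a higher level there, and Prrx1 through the organoids alone. Of the 2 at 1 TPM in both cultures 1 was called higher, Snai3. The forkhead gene Foxc1 had 141, 74 and 505 reads in tumoroids and 1 in all organoids, and Foxc2 3, 18 and 166 reads against 3. The log2 fold change of Foxc2 was 6.07, or 3.66 without tumoroids 3 and 7.47 without WT-cM-titled organoids 1. Snai3, a relative of Snai1, rose by 1.75 (SE 0.33, edgeR adjusted p = 0.0018). Tcf4 had 326, 462 and 1807 reads in tumoroids and 124 to 249 in organoids (1.71), and without tumoroids 3 its log2 fold change was 0.72, below the limit for a call.

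Prrx1, a homeobox gene of mesenchyme, went the other way, with 1 read in all tumoroids. It had 118, 65 and 87 reads in T-cM-titled organoids and 120, 226 and 340 reads in WT-cM-titled organoids. It was the only listed factor called between these groups (log2 fold change -1.11, SE 0.20, edgeR adjusted p = 3.0e-04), lower in the T-cM-titled library of each pair but hardly so in pair 1 (6.24 against 6.6 CPM). Without replicate 2 its adjusted p was 0.48, without the block 0.75 and with limma voom 0.060, and without replicate 3 its log2 fold change of -0.84 fell short of the limit.

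Genes that maintain the epithelial state were read from a list of 13, with 12 tested. Of the 11 at 1 TPM in both cultures 4 were called higher in tumoroids and none lower, with a median of 0.31. The grainyhead genes rose by 3.13 (Grhl1), 1.37 (Grhl2) and 2.98 (Grhl3), with Grhl1 at 2.35 without tumoroids 3, and the epithelial Ets factor Ehf by 1.18 (edgeR adjusted p = 8.2e-04). Against T-cM-titled organoids alone Ehf was at 0.87 (adjusted p = 0.014), below the limit for a call. None was called between the organoid groups by both limits.

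The mesenchymal programme beyond Vim was read from 21 genes, of which 14 were tested, 8 of them passing the filter through the tumoroids alone, among them Spp1, Fn1 and Cald1. Of the 5 at 1 TPM in both cultures 3 were called higher in tumoroids and none lower. The secreted protein gene Spp1 had 11673, 42307 and 43783 reads in tumoroids and 9 in all organoids, and the fibronectin gene Fn1 726, 2812 and 18965 reads against 4. Tgfb1 rose by 2.79 (SE 0.31, edgeR adjusted p = 7.2e-05) and the membrane protease gene Mmp14 by 2.44 (adjusted p = 1.8e-04, or 1.85 without tumoroids 3). Tpm2, a tropomyosin gene that passed through the organoids alone, had 2, 5 and 3 reads in tumoroids and 18 to 71 in organoids, and Lox had 0 reads in all libraries.

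Between the organoid groups 1 gene of this list was called, the actin-binding protein gene Cald1. It had 52, 61 and 69 reads in T-cM-titled organoids and 31, 26 and 26 in WT-cM-titled organoids (log2 fold change 1.29, SE 0.25, edgeR adjusted p = 8.3e-04). The groups did not overlap, although the adjusted p was 0.36 without replicate 2, 0.066 without replicate 3 and 0.69 without the block.

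Markers of other cells did not all move alike between tumoroids and organoids, and their part in the values above was not tested. The immune marker Itgam (5, 11 and 9 reads in tumoroids, 12 to 33 in organoids) was lower in tumoroids and below the filter. So was the endothelial marker Pecam1 (5 reads in each tumoroid library, 6 to 20 in organoids). Of 9 immune markers, Cd3e and Tyrobp had 0 reads everywhere, while Laptm5, Cd68 and Csf1r, the 3 that were tested (Laptm5 through the tumoroids alone), were called higher (Csf1r with an edgeR adjusted p of 0.017, of 0.18 without tumoroids 2 and of 0.079 against T-cM-titled organoids alone), with the sum of the list at 15.5 to 65.8 TPM in tumoroids and 1.44 to 3.49 TPM in organoids. Of 8 smooth muscle markers, Cnn1 and Lmod1 had 0 reads everywhere and Acta2 was called higher (log2 fold change 6.62, or 4.04 without tumoroids 3, and sum 7.84, 4.4 and 93 TPM in tumoroids, up to 1.31 TPM in organoids). Of 8 endothelial markers, Kdr and Emcn had 0 reads everywhere and the endothelial cadherin gene Cdh5 had 1, 1 and 54 reads in tumoroids (sums of 2.53 to 8.11 and 4.58 to 10.5 TPM). Of 8 glial and neuronal markers, Sox10 had 0 reads everywhere and the sums overlapped (4.19 to 6.73 and 4.39 to 9.19 TPM). Between the organoid groups no marker of these lists was called by both limits. By adjusted p alone, Lyve1 (-0.56, edgeR adjusted p = 0.020) and S100b (-0.84, adjusted p = 0.032) were lower in the T-cM-titled group. The fibroblast marker Fbln1 was higher there (0.39, edgeR adjusted p = 0.0041).

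Of 12 markers of intestinal epithelium, all were tested, and of the 11 at 1 TPM in both cultures 1 was called higher in tumoroids and 8 lower (median -1.16). The stem cell receptor gene Lgr5, which passed through the tumoroids alone, had 1472, 1145 and 3073 reads there and 2 to 32 in organoids, while the differentiation markers Vil1 (-2.15), Muc2 (-2.69) and Krt20 (-7.59, or -8.57 without tumoroids 3) fell on the log2 scale. Of 8 gastric markers 7 were tested, 4 of them passing the filter through the tumoroids alone, with sums of 9.78 to 62.8 TPM in tumoroids and 3.05 to 22.9 TPM in organoids. Of the 2 at 1 TPM in both cultures 1 was called higher and 1 lower, Tff1 (-4.275, edgeR adjusted p = 0.0079). Cldn18, which passed through the organoids alone, had 1, 3 and 6 reads in tumoroids and 6 to 46 in organoids. Between the organoid groups Tff1 (1.07, edgeR adjusted p = 0.035) was called higher and Cldn18 (-1.3, adjusted p = 0.017) lower in the T-cM-titled group. Cdh17 and the differentiation markers Vil1, Muc2 and Krt20 were thus lower in the same libraries, and their relation was not tested.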

How the data were processed

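The study prepared polyA-selected stranded libraries and aligned paired-end reads to mm10 with the STAR mapper. The authors deposited raw counts per gene (Gencode), which are not normalised, and TPM, which the authors scaled by gene length. The counting tool, its strand setting and the lengths behind TPM are not given in the sources used here. All 9 libraries were used, grouped by title.

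Counts were analysed in R 4.3.3 with edgeR 4.0.16 (TMM, quasi-likelihood F test in the form used before edgeR 4), with limma 3.58.1 and DESeq2 1.42.0 as alternatives, on the 16208 genes whose TPM reached 1 in any library. P-values were adjusted (Benjamini-Hochberg) over all genes tested, and a call needed a log2 fold change beyond 1 in size together with an adjusted p below 0.05. Organoid groups were compared over 6 libraries, blocked on replicate number, and tumoroids with both organoid groups over 9 libraries without one. Same-numbered organoid libraries deviated together (r = 0.546, 0.338 and 0.547 across genes) and the study's model has a sample effect. The TPM alternative used log2(TPM + 1) with limma. The fits were tested on simulated data.

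All 10 members are described, and from each list up to 5 called genes with the smallest p, the 3 most abundant markers, and the 3 genes nearest to a called member were open to naming. Twist1, Twist2, Lox, Ctnnb1 and Ctnna1 and markers at 0 were named after their values were seen. Some listed genes are not reported here. The members and lists were chosen with earlier results of these data known.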

Additional observations from a re-analysis of the deposited data

How the results depend on the processing

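The number of members called remained 0 between the organoid groups and 3 between tumoroids and organoids under every alternative run, except that Cdh2 joined to make 4 without the filter on low values. Cdh17 kept its direction and an adjusted p under 0.05 in all 20 alternatives. Cdh3 and Cdh13 also kept their direction, which the filter had favoured, so that this is no independent test of them. Signs that turned belonged to members and partners that were not called. Cdh1 in tumoroids was at -0.00135 against T-cM-titled organoids alone and between -0.0782 and 0.187 with 1 library left out. Vim was at 0.0105 with upper-quartile factors, 0.231 with the deposited TPM, 0.195 against T-cM-titled organoids alone and between -0.524 and 0.116 with 1 library left out. Epcam was at 0.171 with the deposited TPM. The median gene also moved, to 0.27 with upper-quartile factors and 0.518 with TPM, and relative to it Vim (-0.26 and -0.287) and Epcam (-0.509 and -0.347) kept their sign. With 1 library left out, Ctnnb1 ranged from -0.0303 to 0.269 and Ctnna1 from -0.00118 to 0.308, the lowest values being those without tumoroids 3, as for Cdh1. The causes were not tested. On the log2(TPM + 1) scale Fat2 (0.676), Lima1 (-0.915) and Ret (-0.472) did not reach the fold change limit.

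The replicate block mattered for the organoid comparison over all genes: edgeR called 179 genes with it and 0 without it (3568 and 904 at an unadjusted p under 0.05), where the members called were also 0. With the pairing, 385, 1 and 94 genes were called without replicate 1, 2 and 3, 104 by limma voom, 93 by DESeq2 and 0 with the deposited TPM and limma (2690 at an unadjusted p under 0.05). Adding a replicate block to the tumoroid comparison left 3 members called. Genes with few reads, Cdh2, Snai1, Snai2 and Zeb1 among the members, are limited by depth.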
